A study of Homo sapiens with 6 samples.

Results

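The caspases and the apoptosome were followed here through 8 genes, CASP2, CASP4, CASP6, CASP8, CASP9, APAF1, CYCS and XIAP. They were taken by gene symbol from a table of 58735 genes, and each symbol matched 1 gene. To examine how their transcripts stood after depletion of calmegin, RNA had been sequenced from Hep-G2 cells. Calmegin, encoded by CLGN, is a chaperone of the endoplasmic reticulum. Hep-G2 is a human line that the study used among its lines for hepatocellular carcinoma. The sh-NC group held 3 libraries of the genotype WT given the treatment shcontrol, and the sh-CLGN group held 3 libraries of the genotype CLGN knock down given the treatment shCLGN. In both groups the hairpin was delivered by lentivirus and cells were selected with puromycin, and all 6 libraries carried the batch label 0DAY. Each group rested on 1 hairpin, so an effect of that hairpin outside its target cannot be told apart from the loss of CLGN. The labels did not say whether the libraries of a group came from separate cultures, so the p-values measure the spread between these libraries, which may be technical.

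Caspases are proteases that lie inactive in the cell and cut their substrates next to aspartate residues once they are activated. Initiator caspases are switched on by assembly on a platform, CASP8 at death receptors and CASP9 on the apoptosome, a wheel of APAF1 molecules that forms when cytochrome c leaves the mitochondria. Executioner caspases are then cleaved and dismantle the cell, and XIAP binds and blocks CASP9 and some of the executioners, CASP6 not among them. These steps run on proteins, by cleavage and assembly, whereas the values below are transcript levels and carry no measure of caspase activity.

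Expression was given as FPKM, fragments scaled to the length of the gene and the size of the library. The libraries held 14955816 to 16244639 reads on genes. CLGN itself stood at 24.1, 21.0 and 26.1 FPKM in the sh-NC libraries and at 9.48, 8.88 and 8.60 FPKM in sh-CLGN, 37.8% of the sh-NC mean, and fell by 1.31 on the log2 scale (SE 0.081, limma with Benjamini-Hochberg adjustment, adjusted p = 8.35e-06). Replicates correlated at 0.988 to 0.992 and libraries of different groups at 0.937 to 0.945 (Pearson, across genes). Genes with any read numbered 23672 ± 110 in sh-NC and 26887 ± 104 in sh-CLGN, and mitochondrial genes took 3.62% ± 0.387 and 5.61% ± 0.170 of the reads (SD, n = 3). Of 10 hepatocyte markers, all of them tested, 4 rose and 5 fell, and they summed to 7411 to 7622 FPKM in sh-NC and 7621 to 8096 FPKM in sh-CLGN. All 8 tested genes of a list of 10 fibroblast and mesenchymal markers rose, from a sum of 63.8 to 68.8 FPKM to one of 222 to 224 FPKM, while DCN and THY1 stayed below 1 FPKM in all 6 libraries. Of 6 blood markers 2 were tested and both fell, with HBB at 0, and of 4 endothelial markers 1 was tested and fell, with KDR at 0. In bulk RNA fewer cells of a type and less RNA per cell cannot be told apart, and the part of these shifts in the results below was not tested.

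All 8 genes passed the expression filter of at least 1 FPKM in at least 3 libraries, and 300 to 3218 reads lay behind each value. In sh-NC their mean levels ran from 4.66 FPKM for CASP9 to 44.1 FPKM for CYCS. The order was CYCS, CASP6, CASP4, CASP2, APAF1, XIAP, CASP8 and CASP9, and CASP8 and CASP9 were the only neighbours whose libraries overlapped. In sh-CLGN the levels ran from 3.67 to 34.9 FPKM, XIAP stood ahead of CASP2 and APAF1, and the libraries of no neighbours overlapped. Levels between genes are per length of each gene's merged exons, so this order holds for that length only.

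**Figure D1:**
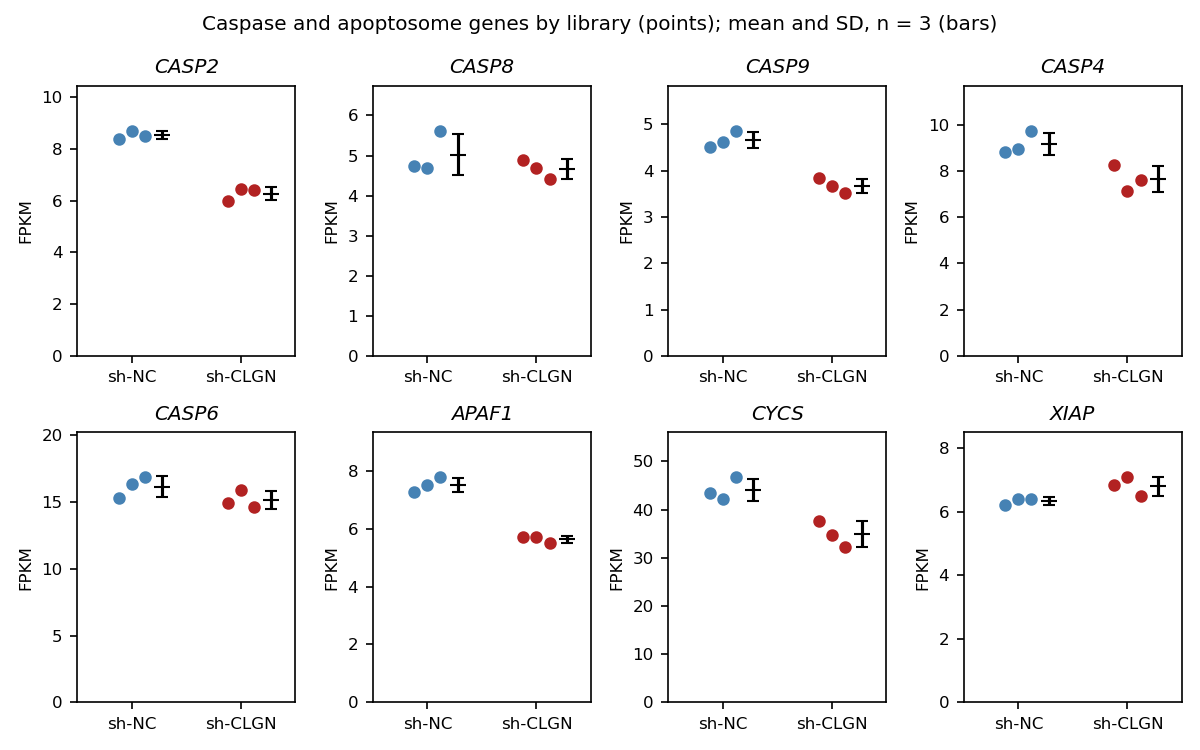
FPKM (y axis, from 0) of each of the 8 genes in the 3 sh-NC (blue) and 3 sh-CLGN (red) libraries; points are libraries, black bars the mean and SD, n = 3. CASP2, CASP9, CASP4, APAF1 and CYCS had every sh-CLGN library below every sh-NC library, XIAP had every sh-CLGN library above, and CASP8 and CASP6 overlapped.

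To set the start regions of the genes side by side, RefSeq promoters (GRCh38.p14, from 250 bases before the start to 50 after it, the first start listed per gene) are printed for 4 genes that fell and for XIAP, which did not pass the test. Capitals mark matches, on either strand, to the motifs searched, and the sequence runs along the strand of the gene.
CASP2, chr7:143288101-143288400, plus strand: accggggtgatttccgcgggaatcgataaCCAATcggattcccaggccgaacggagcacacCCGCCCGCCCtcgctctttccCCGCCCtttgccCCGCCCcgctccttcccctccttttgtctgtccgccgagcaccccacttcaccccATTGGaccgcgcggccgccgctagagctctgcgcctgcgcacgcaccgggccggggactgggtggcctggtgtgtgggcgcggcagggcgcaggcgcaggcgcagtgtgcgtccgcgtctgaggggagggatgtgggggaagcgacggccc
CASP9, chr1:15524166-15524465, minus strand: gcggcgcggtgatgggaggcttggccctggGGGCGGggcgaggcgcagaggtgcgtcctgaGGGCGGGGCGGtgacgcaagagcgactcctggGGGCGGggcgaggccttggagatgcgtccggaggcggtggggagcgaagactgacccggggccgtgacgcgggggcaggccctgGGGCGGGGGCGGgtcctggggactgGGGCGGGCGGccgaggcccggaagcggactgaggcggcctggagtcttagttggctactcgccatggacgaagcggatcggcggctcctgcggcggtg
APAF1, chr12:98645040-98645339, plus strand: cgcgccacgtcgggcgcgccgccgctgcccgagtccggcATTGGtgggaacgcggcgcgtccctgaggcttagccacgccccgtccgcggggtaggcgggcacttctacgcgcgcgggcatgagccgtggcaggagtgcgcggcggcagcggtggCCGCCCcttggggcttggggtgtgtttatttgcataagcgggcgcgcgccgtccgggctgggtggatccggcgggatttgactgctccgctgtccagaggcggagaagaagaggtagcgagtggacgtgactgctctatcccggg
CYCS, chr7:25125211-25125510, minus strand: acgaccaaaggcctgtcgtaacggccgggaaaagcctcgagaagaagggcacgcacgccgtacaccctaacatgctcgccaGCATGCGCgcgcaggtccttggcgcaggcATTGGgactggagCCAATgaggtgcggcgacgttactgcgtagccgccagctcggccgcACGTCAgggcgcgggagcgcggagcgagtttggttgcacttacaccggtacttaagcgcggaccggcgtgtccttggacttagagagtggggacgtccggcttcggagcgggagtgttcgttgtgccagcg
XIAP, chrX:123859458-123859757, plus strand: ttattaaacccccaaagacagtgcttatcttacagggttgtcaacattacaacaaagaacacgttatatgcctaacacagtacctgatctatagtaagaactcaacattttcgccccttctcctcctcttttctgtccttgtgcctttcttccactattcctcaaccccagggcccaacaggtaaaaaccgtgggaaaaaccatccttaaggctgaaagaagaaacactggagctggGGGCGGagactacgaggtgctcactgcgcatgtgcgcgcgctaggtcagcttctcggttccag
The CASP9 window was 76.0% G and C and held 8 matches to the GC box GGGCGG, several of which overlap, against 4 in CASP2, 1 in APAF1 and 1 in XIAP. CYCS was the only window of the 8 without a GC box, which 45.0% of 35116 promoters held. CYCS instead held 2 matches to CCAAT (34.6% of promoters), 1 to TGACGT, the core of the cAMP response element (7.98%), and 1 to GCATGCGC, the core bound by NRF1 (3.05%). CCAAT was also matched in CASP2 and CASP4, with 2 each, and in APAF1, with 1, and was thus found in 4 of the 8 windows. The interferon response motif GAAANNGAAA (3.57% of promoters) was matched in CASP8 alone. None of the 8 windows held TATAAA (11.5%), the E2F motifs TTTCGCGC (0.515%) and TTTGGCGC (0.652%), or the NF-kB motif (5.91%). A match describes letters in the window and says nothing of binding.

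Of the initiator caspases, CASP2 and CASP9 fell and CASP8 did not pass the test. CASP2 (ENSG00000106144, chr7:143288215-143307696, plus strand, GRCh38), an initiator that assembles with PIDD1 and CRADD, stood at 8.37, 8.69 and 8.51 FPKM in the sh-NC libraries and at 5.98, 6.43 and 6.40 FPKM in sh-CLGN. Every sh-CLGN library lay below every sh-NC library, and the gap was wider than the spread within either group. The mean went from 8.53 ± 0.161 to 6.27 ± 0.256 FPKM (SD, n = 3), 73.6% of the controls. Measured as log2(FPKM + 1), CASP2 fell by 0.39 (SE 0.054, 95% interval -0.52 to -0.26, limma adjusted p = 0.000409). It passed as lower under all 11 alternative settings (log2 fold change -0.44 to -0.22) and without each library in turn (-0.41 to -0.36). Among the 11, only TPM, quantile normalization, read totals and the GC correction change how libraries are scaled to each other. With these CASP2 was at -0.30, -0.29, -0.22 and -0.30.

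CASP9 (ENSG00000132906, chr1:15490832-15526534, minus strand), the initiator of the apoptosome, stood at 4.52, 4.61 and 4.86 FPKM in the sh-NC libraries and at 3.84, 3.66 and 3.53 FPKM in sh-CLGN. The groups did not overlap, and the lowest control library was above the highest sh-CLGN library. Its mean went from 4.66 ± 0.175 to 3.67 ± 0.156 FPKM (SD, n = 3), a fall of 0.28 on the log2 scale (SE 0.061, 95% interval -0.42 to -0.13, limma adjusted p = 0.00461). The call was lost with TPM (limma adjusted p = 0.0594), with scaling by read totals (0.138) and with a GC correction (0.472), over a range of 0.00243 to 0.472 for the 11 alternatives. CASP9 had the highest GC content of the 8 transcripts, 55.0%, and tested genes of like GC content (grouped into 10 bins of equal size) had a median log2 fold change of -0.25, against -0.28 for CASP9.

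CASP8 (ENSG00000064012, chr2:201233443-201287711, plus strand), the initiator of death receptors, stood at 4.75, 4.69 and 5.61 FPKM in the sh-NC libraries and at 4.90, 4.69 and 4.40 FPKM in sh-CLGN. The groups overlapped, and the third control library was the highest of the 6. The mean was 5.02 ± 0.516 FPKM in sh-NC and 4.66 ± 0.249 FPKM in sh-CLGN (SD, n = 3), with a log2 fold change of -0.08 (SE 0.077, limma adjusted p = 0.363). Its 95% interval, -0.26 to 0.09, takes in no difference as well as a fall of the size seen in CASP4, and without sh-NC replicate 3 the log2 fold change was -0.015.

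CASP4 (ENSG00000196954, chr11:104942866-104969436, minus strand), an inflammatory caspase that senses bacterial lipopolysaccharide inside the cell, stood at 8.84, 8.95 and 9.74 FPKM in the sh-NC libraries and at 8.26, 7.13 and 7.61 FPKM in sh-CLGN. The groups did not overlap, though the highest sh-CLGN library, the first, lay close to the lowest control. The mean went from 9.17 ± 0.488 to 7.67 ± 0.569 FPKM (SD, n = 3), and CASP4 fell by 0.23 on the log2 scale (SE 0.068, 95% interval -0.39 to -0.08, limma adjusted p = 0.0165). The call was lost without sh-CLGN replicate 2 (log2 fold change -0.19, limma adjusted p = 0.0693), and with TPM (0.202), quantile normalization (0.198) and read totals (0.492), over a range of 0.00163 to 0.492 for the 11 alternatives.

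CASP6 (ENSG00000138794, chr4:109688622-109703583, minus strand), an executioner that cleaves lamins, stood at 15.3, 16.3 and 16.8 FPKM in the sh-NC libraries and at 15.0, 15.9 and 14.6 FPKM in sh-CLGN. The groups overlapped, with the second sh-CLGN library above the first control. Its mean was 16.2 ± 0.774 FPKM and 15.2 ± 0.651 FPKM (SD, n = 3), a log2 fold change of -0.09 (SE 0.057, 95% interval -0.22 to 0.05, limma adjusted p = 0.214). The sign turned with TPM, quantile normalization and read totals, none of which passed (adjusted p over the 11 alternatives 0.111 to 0.700).

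Both genes of the apoptosome platform fell. APAF1 (ENSG00000120868, chr12:98645141-98735433, plus strand), which oligomerizes into the wheel, stood at 7.28, 7.49 and 7.76 FPKM in the sh-NC libraries and at 5.71, 5.70 and 5.50 FPKM in sh-CLGN. Every sh-CLGN library lay well below the controls, and the gap was wider than the spread within either group. The mean went from 7.51 ± 0.243 to 5.64 ± 0.120 FPKM (SD, n = 3), 75.0% of the controls, and APAF1 fell by 0.36 on the log2 scale (SE 0.054, 95% interval -0.48 to -0.23, limma adjusted p = 0.000610). It passed as lower under all 11 alternatives (-0.48 to -0.19) and without each library in turn (-0.38 to -0.34). With TPM, quantile normalization, read totals and the GC correction, which change the scaling, APAF1 was at -0.28, -0.28, -0.19 and -0.48. Tested genes in its bin of GC content had a median log2 fold change of 0.10.

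CYCS (ENSG00000172115, chr7:25120091-25125361, minus strand) encodes cytochrome c, the electron carrier of the respiratory chain that triggers the apoptosome once released. It stood at 43.5, 42.2 and 46.7 FPKM in the sh-NC libraries and at 37.6, 34.8 and 32.3 FPKM in sh-CLGN, with no overlap. The mean went from 44.1 ± 2.32 to 34.9 ± 2.66 FPKM (SD, n = 3), a fall of 0.33 on the log2 scale (SE 0.067, 95% interval -0.49 to -0.17, limma adjusted p = 0.00303). The call was lost with quantile normalization (limma adjusted p = 0.606) and read totals (0.121), over a range of 0.000165 to 0.606 for the 11 alternatives. CYCS has 40 annotated pseudogenes, 12 of which had a read. These summed to 42 to 110 reads per library, 1.53% to 4.73% of the reads on CYCS. The lowest share was in an sh-NC library, replicate 2, and the highest in an sh-CLGN library, replicate 3. Reads that fit CYCS and a pseudogene alike may be missing from both counts. These shares thus do not bound the uncertain part of its reads.

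XIAP (ENSG00000101966, chrX:123859724-123913979, plus strand), which inhibits CASP9 but not CASP6, stood at 6.20, 6.38 and 6.41 FPKM in the sh-NC libraries and at 6.83, 7.07 and 6.49 FPKM in sh-CLGN. The sh-CLGN libraries were all above the controls, by a narrow margin in the third. Its mean was 6.33 ± 0.112 FPKM and 6.80 ± 0.294 FPKM (SD, n = 3), a log2 fold change of 0.09 (SE 0.055, 95% interval -0.04 to 0.22) that did not pass (limma adjusted p = 0.195). XIAP passed as higher with TPM (limma adjusted p = 0.0282), quantile normalization (0.0347) and read totals (0.00530), over a range of 0.00530 to 0.283 for the 11 alternatives, and its sign turned with the GC correction.

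Set against the whole table, 5 of the 8 genes fell, 0 rose and 3 did not pass, and none of the 8 moved by 1 or more on the log2 scale. Of the 13074 genes tested, 39.0% fell and 26.7% rose by the same rule, and 6.28% passed with a log2 change of 1 or more in either direction. At an unadjusted p of at most 0.05, again 0 of the 8 were higher. The groups did not overlap for 5 genes in the direction of lower in sh-CLGN and for 1, XIAP, in the direction of higher, against 41.5% and 28.7% of all tested genes. The median log2 fold change was -0.25 over the 8 genes and -0.08 over all tested genes. The number that fell was 3 with TPM, 3 with quantile normalization and 2 with read totals, and in each of these 1 gene, XIAP, rose. The same scalings turned the balance of the whole table from 3496 higher and 5102 lower to 4285 and 3923 with TPM, 3957 and 4253 with quantile normalization, and 5048 and 3407 with read totals. TPM moved the median of all tested genes by 0.11 and read totals by 0.17 on the log2 scale. Relative to the median of each setting, CASP2 lay at -0.42 to -0.27 and APAF1 at -0.47 to -0.24, whereas CYCS lay at -0.39 to -0.03 and XIAP at -0.07 to 0.21.

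**Figure D2:**
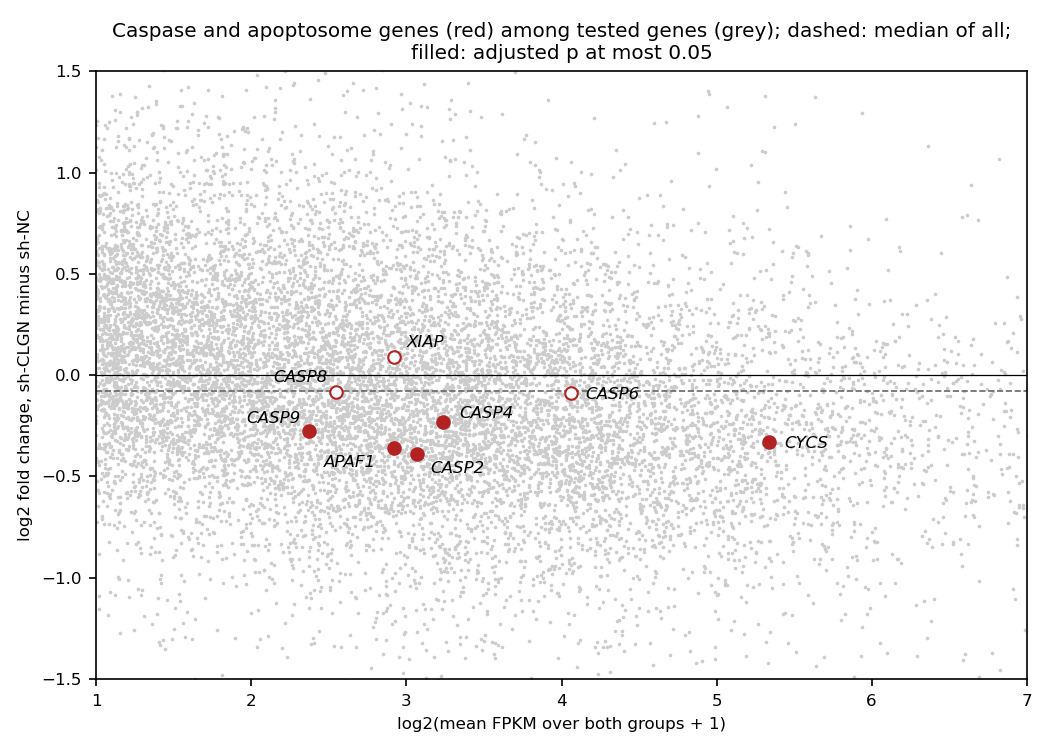
Log2 fold change of sh-CLGN against sh-NC (y axis) against log2(mean FPKM + 1) over both groups (x axis) for tested genes (grey) and the 8 genes (red, filled where the adjusted p is at most 0.05); genes beyond the axes are not drawn. The 8 genes lie between -0.39 and 0.09, 5 of them filled and below the dashed line at the median of all tested genes, -0.08.

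**Figure D3:**
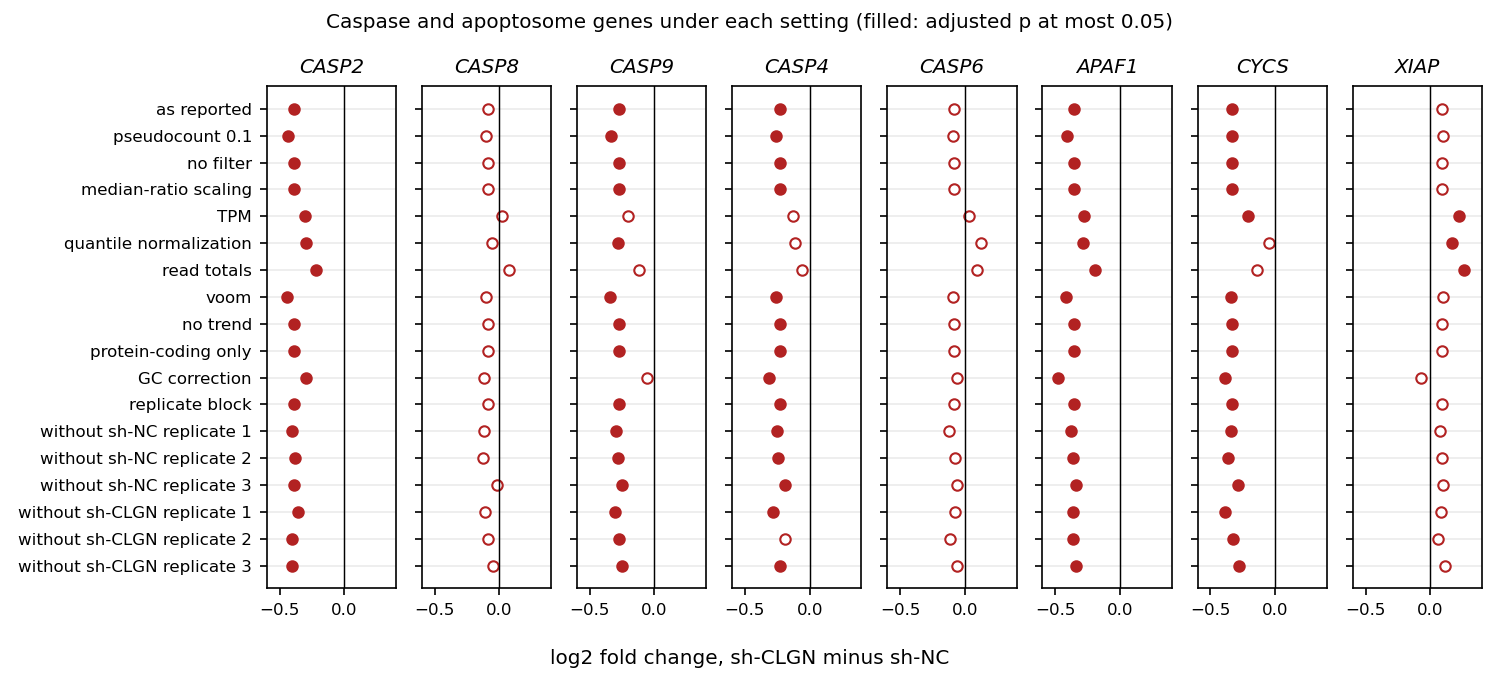
Log2 fold change (x axis of each panel) of the 8 genes under the reported setting, the 11 alternatives and without each library in turn (y axis); filled circles have an adjusted p of at most 0.05. CASP2 and APAF1 are filled in every line, CASP9, CASP4 and CYCS are open under some scalings, and XIAP is filled on the higher side with TPM, quantile normalization and read totals.

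To see the balance of inhibitor, platform and protease within each library, ratios of FPKM were taken, in which the scaling of a library cancels but a dependence on GC content does not. The ratio of XIAP to CASP9 was 1.37, 1.38 and 1.32 in the controls and 1.78, 1.93 and 1.84 in sh-CLGN. All sh-CLGN libraries stood above the controls, and the mean went from 1.36 ± 0.0343 to 1.85 ± 0.0767 (SD, n = 3; exact permutation test, two-sided p = 0.1, the smallest that 3 against 3 libraries allow). The ratio of APAF1 to CASP9 was 1.61, 1.62 and 1.60 in the controls and 1.49, 1.56 and 1.56 in sh-CLGN, and the sh-CLGN libraries were all lower, by a log2 difference of -0.07 (exact permutation p = 0.1). CASP8 was set against CFLAR, the decoy that holds it back at death receptors. The ratio of CASP8 to CFLAR was 1.56, 1.51 and 1.81 in the controls and 1.98, 2.18 and 1.81 in sh-CLGN, with the third libraries of both groups nearly level, and the mean went from 1.62 ± 0.161 to 1.99 ± 0.184 (SD, n = 3; exact permutation p = 0.1). With the GC correction, an alternative added after the values were seen, the log2 difference was -0.014 for XIAP to CASP9, -0.42 for APAF1 to CASP9 and 0.10 for CASP8 to CFLAR, against 0.36, -0.082 and 0.20 without it on the same scale, log2(FPKM + 1). The difference between XIAP and CASP9 was not kept, and CASP9 had a GC content of 55.0%, XIAP 40.2% and APAF1 41.2%.

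**Figure D4:**
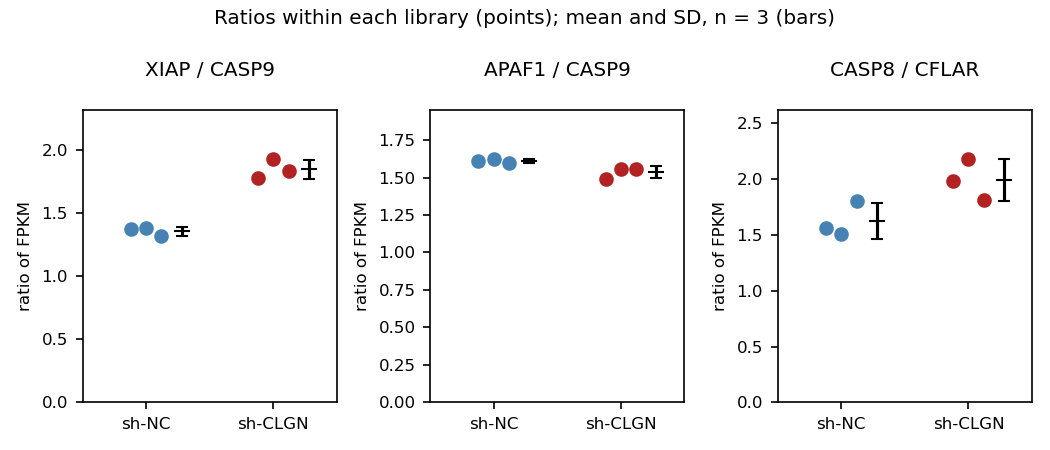
Ratios of FPKM within each library (y axes, from 0) for XIAP to CASP9, APAF1 to CASP9 and CASP8 to CFLAR; points are libraries, black bars the mean and SD, n = 3. The mean of XIAP to CASP9 is 1.36 in sh-NC and 1.85 in sh-CLGN, and that of CASP8 to CFLAR 1.62 and 1.99.

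The genes that act with these 8 were taken from 4 lists, of which 36 genes are reported here and 29 were tested. Of these 12 rose, 11 fell and 6 did not pass, against 26.7% and 39.0% of all tested genes, with a median log2 fold change of 0.057. Among other caspases and CFLAR, 2 of 6 were tested. CFLAR fell by 0.29, a call lost with TPM and read totals (log2 fold change -0.40 to -0.15 over the 11 alternatives), and CASP10 did not pass, at -0.15.

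The IAP proteins, the family of XIAP, and their antagonists included 6 tested genes of 9. Of these 5 rose and 1 fell, against 26.7% higher and 39.0% lower over all tested genes. With the GC correction 4 rose and 1 fell, and BIRC3 was lost. With TPM, quantile normalization and read totals 5 rose and 0 fell, and BIRC5 was lost. BIRC2, a ubiquitin ligase of the family, went from 7.34 ± 1.39 to 13.5 ± 0.689 FPKM (SD, n = 3; log2 fold change 0.81, limma adjusted p = 0.000446), whereas XIAP itself did not pass. BIRC7 had at most 1 read in each control library against 27 to 37 under the CLGN hairpin, and its log2 fold change of 1.15 depends on the pseudocount of 1. HTRA2, a mitochondrial protease that antagonizes the IAP proteins once released, rose by 0.57 (adjusted p = 5.70e-05), and BIRC5, survivin, fell by 0.27 (-0.28 to -0.017 over the 11 alternatives).

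The adaptors and regulators of the initiators, a list that also held HCCS, were all tested. Of the list 4 rose, 3 fell and 3 did not pass, against 26.7% higher and 39.0% lower over all tested genes. The numbers higher and lower were 6 and 2 with the GC correction, 5 and 2 with TPM and with read totals, and 2 and 3 with no filter. RIPK1, a kinase that joins CASP8 at death receptors, fell by 1.19, from 12.7 ± 0.339 to 5.03 ± 0.390 FPKM (SD, n = 3; limma adjusted p = 4.79e-06). DEDD, a death effector domain protein, fell by 0.68. HCCS, the enzyme that attaches heme to cytochrome c, rose by 0.99 (adjusted p = 4.25e-06), while CYCS fell. Of the CASP2 partners, PIDD1 rose by 0.36, a call lost with no filter, and CRADD did not pass, at 0.20.

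Of 11 substrates and effectors, 3 rose, 6 fell and 2 did not pass, with a median of -0.24, against 26.7% higher and 39.0% lower over all tested genes. With the GC correction 5 rose and 5 fell (median -0.11), and with TPM and with read totals 4 rose and 5 fell (medians -0.15 and -0.072). PARP1, a DNA repair enzyme cut by executioners, fell by 0.82, from 82.0 ± 1.91 to 45.9 ± 1.83 FPKM (SD, n = 3; limma adjusted p = 6.48e-06). ENDOG and AIFM1, mitochondrial proteins that act on nuclear DNA in cell death, fell by 1.40 and 0.54. BID, which CASP8 cleaves to reach the mitochondria, fell by 0.60. The 3 that rose were ROCK1, by 0.37, DFFB, by 0.32, and LMNA, by 0.27. The call of DFFB was lost with no filter, quantile normalization and the replicate block.

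**Figure D5:**
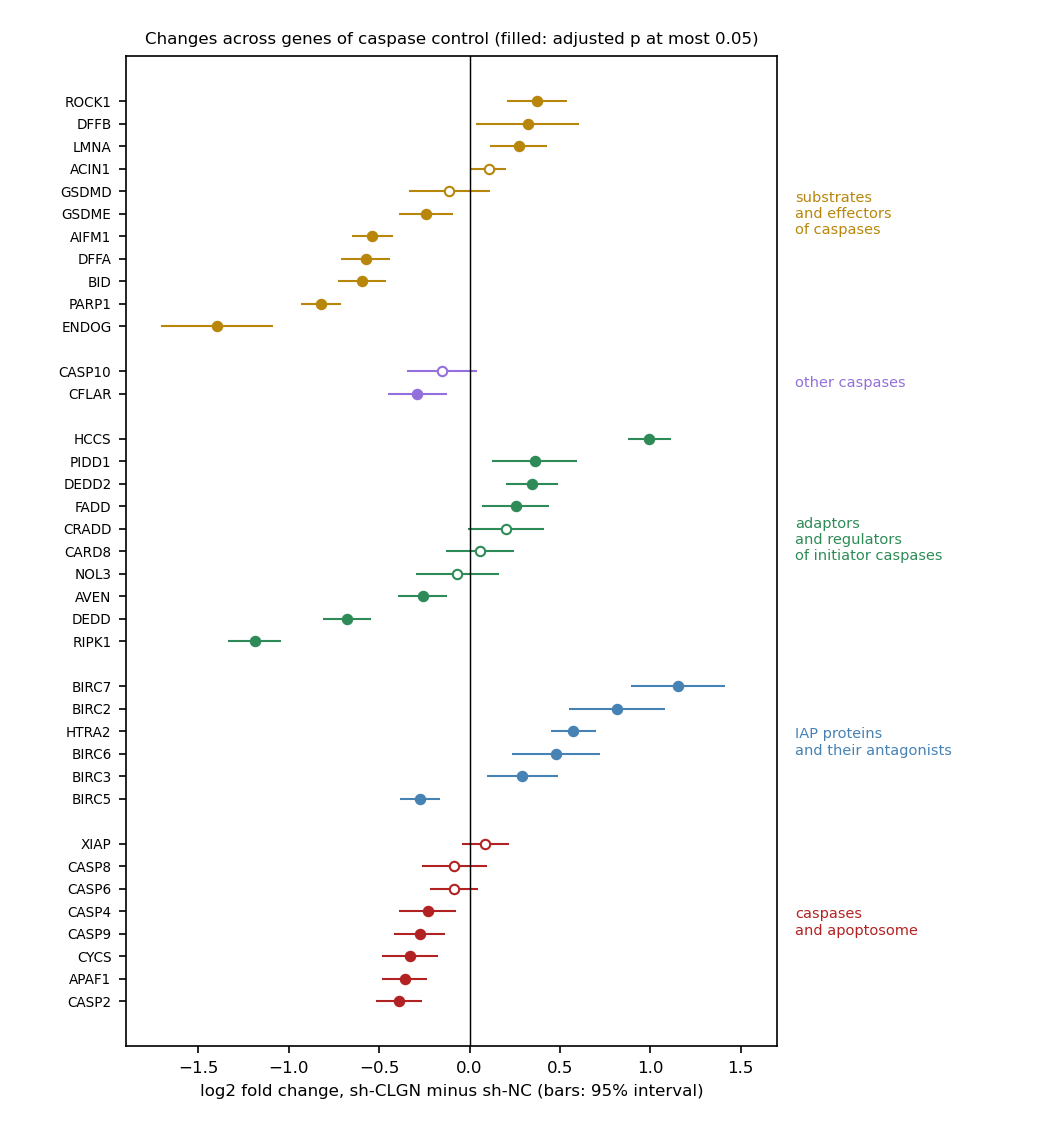
Log2 fold change (x axis) with 95% intervals for the 8 genes (red) and the 29 tested genes of the 4 lists (other colours), filled where the adjusted p is at most 0.05. The 8 genes lie between -0.39 and 0.09, while the lists run from -1.40 for ENDOG to 1.15 for BIRC7.

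CASP8 and CASP4 sit in clusters of related genes, and their neighbours were compared with them. On chromosome 2, CFLAR, CASP10 and CASP8 lie in this order within chr2:201116104-201287711. CFLAR went from 3.09 ± 0.0370 to 2.35 ± 0.174 FPKM (SD, n = 3) and fell (limma adjusted p = 0.00699), whereas CASP10 (3.53 ± 0.279 and 3.08 ± 0.308 FPKM, adjusted p = 0.139) and CASP8 did not pass. On chromosome 11, CASP12, CASP4, CASP5 and CASP1 follow each other. CASP4 had 848 to 1093 reads, CASP12 had 0 in all 6 libraries and CASP5 had 14 to 26. CASP1, the caspase that matures interleukin-1 beta, had 9, 3 and 7 reads in the controls against 72, 49 and 69 under the CLGN hairpin, so that it was higher in every sh-CLGN library. The reads of CASP4 overlapped between the groups, as did those of CASP9 and CYCS. The separation of the groups for these genes holds for the deposited FPKM.

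The spans of some members, introns included, overlap those of other genes, and whether exons overlap was not tested. Counts may be split there. For genes on opposite strands this depends on the strand setting of the counting, which was not given. On the same strand, RN7SL535P and RN7SL481P overlap CASP2, at 0.206 to 1.88 and 0.216 to 2.28 FPKM over the libraries. ANKS1B overlaps APAF1 on the opposite strand and stood at 0.0868 to 0.175 FPKM in the controls and 0.499 to 0.555 FPKM in sh-CLGN, the other way from APAF1. MCUB overlaps CASP6 and CELA2B overlaps CASP9, at 1.01 to 2.05 and 0.0444 to 0.335 FPKM. XIAP-AS1 lies against XIAP and was at 0 in all sh-NC libraries and at up to 0.128 FPKM in sh-CLGN.

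To describe matches of the hairpin within these transcripts, annotated 3′ UTRs of 10880 tested genes were searched for the 3 overlapping heptamers at the end of its target, as the study's methods give it. The heptamer ATACCAC was found in 7.90% of the genes and in none of the 8, the next, TACCACA, in 10.8% and the last of them, ACCACAA, in 11.6%, while 21.5% held any of the 3. Among the 8 genes, 2 held any, and both are printed because they are the only matches (GRCh38, plus strand, the heptamer in capitals).
CASP8, chr2:201287226-201287232: aaattccacacTACCACAttaaaaaaatt
APAF1, chr12:98733209-98733215: gatctcggctcACCACAAtcgctgcctcc
APAF1 fell and CASP8 did not pass, and CASP2, CASP9, CASP4 and CYCS fell without a match. The lengths of UTRs were not matched here, and a match does not show a site that is used.

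For each of the 8 genes the protein-coding gene with the most similar course over the 6 libraries was sought among 10978 tested genes, by the root mean square distance of centred log2(FPKM + 1) values. CORO2A lay nearest to CASP2, at 0.00759, MAPRE1 to CASP9, at 0.0135, and STOM to APAF1, at 0.0161. ATP5F1C, a subunit of mitochondrial ATP synthase, lay nearest to CYCS, at 0.0195. IFT22 lay nearest to CASP4, ITPRIPL2 to CASP6, ZNF662 to CASP8 and C11orf58 to XIAP, at up to 0.0214. Such courses were common, since 58 to 274 genes lay within 0.05 of each of the 8.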

How the data were processed

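Gene-level FPKM values, deposited by the authors as 1 table, cover 3 sh-NC and 3 sh-CLGN libraries of Hep-G2 cells, and per the labels a NEBNext Ultra kit was used. The submitters' processing notes name HISAT2 2.0.5, featureCounts and GRCh38. Strandedness and the annotation are not given in the sources used here, but all 58735 gene positions equalled GENCODE 29. FPKM times length gave whole reads for 100% of values, within 0.01 of a read. The divisors implied by these values were 0.933 to 0.953 times the read total in sh-NC and 1.07 to 1.08 times it in sh-CLGN. The deposited values thus hold a scaling beyond depth, and results were also recomputed from the read totals, without it. Median-ratio scaling gave the same factor, 1.01, in all 6 libraries, so the deposited values already stood level by that measure. Voom, an alternative listed below, kept the implied divisors.

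Genes that reached 1 FPKM in 3 or more libraries were tested with limma 3.58.1 (R 4.3.3, eBayes with trend) on log2(FPKM + 1), which understates changes of low genes. Two-sided p-values were adjusted by Benjamini-Hochberg over 13074 genes, with a threshold of 0.05. Levels and ratios carry an SD over 3 libraries. The 95% intervals come from the limma fit, and the floor of 3 reads covers counting error only, since no molecular identifiers are named. The alternatives were a pseudocount of 0.1, no filter, median-ratio scaling, TPM, quantile normalization, read totals (the recovered reads without the authors' scaling), voom on the recovered reads, no trend, protein-coding genes, a GC correction (lowess, span 0.3), a replicate block and leaving out each library.

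The genes and lists were chosen with earlier results of these data known, so their directions are not independent evidence. Named genes are the 8, the 3 tested genes of each list with the smallest adjusted p, the neighbours CASP1, CASP5, CASP12, CASP10 and CFLAR, and the nearest gene of each of the 8. BIRC3, BIRC5, PIDD1, CRADD, BID, FADD, DFFB, ROCK1 and LMNA were added after their values were seen, where no rule named them. Some genes of the lists are not reported here, and the counts leave them out. Promoters came from RefSeq and matched all 8 genes. The fitting procedure was run on simulated counts that held no shift in scaling or GC content, so its response to such shifts was not tested. Python 3.11.15, pandas 2.3.3, scipy 1.17.1 and matplotlib 3.10.9 were used.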

Additional observations from a re-analysis of the deposited data

Results flagged for a closer look

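Among the related genes outside the tested set, 2 had every sh-CLGN library above every sh-NC library and above 3 reads. CASP1, the neighbour of CASP4 that matures interleukin-1 beta, went from 0.117 ± 0.0596 to 1.04 ± 0.198 FPKM (SD, n = 3). It did not reach the filter of 1 FPKM in at least 3 libraries, and with no filter its log2 fold change was 0.86 (SE 0.106, limma with Benjamini-Hochberg adjustment, adjusted p = 0.00211). DIABLO, an antagonist of XIAP released from mitochondria, went from 0.159 ± 0.0647 to 0.316 ± 0.0390 FPKM (SD, n = 3) under 1 of its 2 identifiers, on 11 to 41 reads per library, and did not pass with no filter (log2 fold change 0.18, limma adjusted p = 0.0837). The gene models of the 2 identifiers overlap, so reads may have been left uncounted or split, and the level of DIABLO is uncertain.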

How the results depend on the processing

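CASP2 and APAF1 passed as lower under all 11 alternatives and without each library. Of the alternatives, only TPM, quantile normalization, read totals and the GC correction change how libraries are scaled to each other. The replicate block changed no call among the 8 genes (CASP2 -0.39, 5 genes lower), while FADD and DFFB of the lists no longer passed under it. Deviations of same-numbered libraries correlated at -0.0184, -0.046 and -0.146, against -0.0761 to 0.107 for libraries of unlike number. No pairing by number was seen, but 3 libraries per group are too few to show that none exists. On the log2 scale and with TPM, CASP9 was at -0.20 and CASP4 at -0.13, both no longer past the threshold, CASP8 at 0.024 and CASP6 at 0.035 changed sign, and XIAP passed at 0.22. With quantile normalization CASP4 was at -0.11 and CYCS at -0.046 and neither passed, CASP6 changed sign at 0.12 and XIAP passed at 0.17. With read totals CASP9 was at -0.12, CASP4 at -0.058 and CYCS at -0.14 and none of them passed, CASP8 at 0.077 and CASP6 at 0.097 changed sign, and XIAP passed at 0.26. With the GC correction CASP9 was at -0.056 and did not pass, and XIAP changed sign at -0.070. The genes lower among the 8 were 3, 3 and 2 with TPM, quantile normalization and read totals, those higher 1, 1 and 1, and the list genes lower were 7 with TPM and 7 with read totals. The log2 ratio of XIAP to CASP9 was 0.36 on FPKM + 1, and with the GC correction, added after the values were seen, the log2 ratios of XIAP to CASP9, APAF1 to CASP9 and CASP8 to CFLAR were -0.014, -0.42 and 0.10. Leaving out each library gave CASP4 a range of -0.28 to -0.19. These settings change the scale by construction, and which scale stands nearer to transcripts per cell was not tested. At least 300 reads lay behind each value of the 8 genes, whose power was not tested, and CASP5 and CASP1 lay below the filter. CLGN stayed lower throughout, at -1.54 to -1.12.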
